A study of Homo sapiens with 6 samples.

Results

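The cell cycle and DNA replication genes described here are 50 of the 20046 protein-coding genes, and of 62700 genes in all, of the GENCODE version 44 annotation. The members were listed by name. Every interval of the DDX5 peak lists whose summit lay between the annotated start and end of a member was counted for it. The list was sorted by role into 20 genes of DNA replication, 16 genes of cyclins, cyclin-dependent kinases, E2F and RB factors and checkpoints (called checkpoint genes below), and 14 genes of mitosis. The measurements came from RNA immunoprecipitation and sequencing of DDX5, a DEAD-box RNA helicase, in nuclei of RH30. RH30 is 1 established alveolar rhabdomyosarcoma line, and all samples, INPUT included, carry its PAX3-FOXO1 fusion. The analysed group holds 3 biological replicates of an immunoprecipitate with a DDX5 antibody, and the 3 INPUT samples, which had no antibody, were not analysed here. Neither a treatment nor a time point is given for any sample. The library kit did not keep strand, so a gene and a partner on the opposite strand cannot be told apart.

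Cells copy their DNA once per cycle. ORC, CDC6 and CDT1 load the MCM helicase at origins, CDC45 and GINS switch it on, and DNA polymerases extend the new strands with nucleotides supplied by ribonucleotide reductase and thymidylate synthase. Cyclins with their kinases drive each step, the RB and E2F proteins set the transcription of the S-phase genes, and CHEK1, WEE1 and the CDC25 phosphatases hold or release the next step. In mitosis PLK1, the Aurora kinases and the spindle checkpoint proteins govern the separation of the chromosomes. The transcripts of many of these genes are made mainly in S phase or in G2 and mitosis, so a growing culture holds cells that differ in their content of these RNAs.

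In coding sequence, the 3 replicates placed a summit, the highest point of an interval, at nearly the same bases of several members. The windows printed here are those with the closest summits, 1 per gene, because they show where DDX5 immunoprecipitates gave a signal at one place 3 times. Each is the GRCh38 sequence of the strand of the gene, 5′ to 3′, and runs at most 50 bases to each side of the middle of the summits, within 1 exon. Capitals mark the stretch from the first to the last of the 3 summits.
MCM10, chr10:13195122-13195222, plus strand, exon 14 of 20: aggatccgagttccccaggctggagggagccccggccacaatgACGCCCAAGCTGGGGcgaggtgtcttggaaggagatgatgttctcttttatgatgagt
MCM7, chr7:100096005-100096105, minus strand, exon 11 of 15: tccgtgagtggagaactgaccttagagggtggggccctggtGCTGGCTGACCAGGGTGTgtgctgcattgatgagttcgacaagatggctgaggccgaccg
MCM3, chr6:52273771-52273871, minus strand, exon 10 of 17: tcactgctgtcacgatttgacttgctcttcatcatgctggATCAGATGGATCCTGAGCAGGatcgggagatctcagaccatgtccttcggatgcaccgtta
CDC45, chr22:19482690-19482788, plus strand, exon 4 of 19: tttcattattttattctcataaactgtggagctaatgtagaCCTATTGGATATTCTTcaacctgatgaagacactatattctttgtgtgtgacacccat
CDC25B, chr20:3801965-3802065, plus strand, exon 10 of 16: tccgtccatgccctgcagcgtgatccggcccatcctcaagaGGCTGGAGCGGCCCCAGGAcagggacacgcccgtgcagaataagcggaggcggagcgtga
CCND2, chr12:4276067-4276167, plus strand, exon 2 of 5: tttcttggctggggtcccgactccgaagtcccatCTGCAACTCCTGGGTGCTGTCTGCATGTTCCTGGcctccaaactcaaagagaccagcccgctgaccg
PLK1, chr16:23680939-23681039, plus strand, exon 3 of 10: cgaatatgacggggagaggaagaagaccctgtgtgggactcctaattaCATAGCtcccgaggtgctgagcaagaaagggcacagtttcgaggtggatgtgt
MKI67, chr10:128101375-128101475, minus strand, exon 14 of 15: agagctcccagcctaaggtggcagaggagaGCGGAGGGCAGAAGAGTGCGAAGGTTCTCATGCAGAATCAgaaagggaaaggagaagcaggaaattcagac
The MCM7 and MCM3 windows lie in the part that encodes the ATPase domain shared by the MCM proteins. The CCND2 window lies in the cyclin box, and the PLK1 window lies in the kinase domain. The GC content of the windows ran from 33.3% in CDC45 to 67.3% in CDC25B. Each of the following sites of 30 bases in 3′ UTRs, except that of CDK6, held all 3 summits, again in capitals. The CDK6 site held the summits of replicates 2 and 3, and that of replicate 1, at chr7:92605870, lay 1 base outside it.
MCM5, chr22:35424384-35424413, plus strand, exon 17 of 17: ttctgcCCCAGAGGAAGGAGCTGTAGtgtc
MCM7, chr7:100092875-100092904, minus strand, exon 15 of 15: ctcttgttccCTGCTGGCctgccccttggg
CHEK1, chr11:125656472-125656501, plus strand, exon 13 of 13: gtgtTACTGGAGTATACCCATAGGAGGAat
CDC25B, chr20:3805452-3805481, plus strand, exon 16 of 16: aTGTTGCCCCTTTCTCTTTTCCCCTTTCCT
CDK6, chr7:92605840-92605869, minus strand, exon 8 of 8: ACCACAGTGGCCTGTCGGGTCCACCCTGTg
MKI67, chr10:128096754-128096783, minus strand, exon 15 of 15: ggctcCCCTCCTGGGGTTGTAAGTtttgtt
Each of these printed sequences occurred exactly 1 time on the main chromosomes of GRCh38, either strand counted, so none is an exact repeat. The CCND2 window also lies within other gene records, described with that gene.

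The lists held 23715, 23651 and 45832 intervals in replicates 1, 2 and 3, and the sequencing depth behind them is unknown. Of 10 genes that mark rhabdomyosarcoma, among them MYOD1, MYOG and DES, 9 had an interval in every list and TFAP2B had none. Of 10 markers of blood, epithelium, endothelium and liver, none had an interval in every list, and only PECAM1 had any. The fold enrichment quoted throughout is the authors' own linear ratio of each interval over the background of the peak caller. Which library served as control in the calls is not given in the sources used here, so whether the fold compares with INPUT is unknown, and RNA abundance and DDX5 binding cannot be told apart. With 3 lists an exact two-sided sign-flip test cannot give a p below 0.25, so differences between roles are given as values with their spread and not as calls.

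The members held 204, 132 and 352 intervals in replicates 1, 2 and 3, or 688 in all. In replicate 1, 43 of 50 members had an interval, beside 35.2% of all protein-coding genes. In replicate 2 it was 37, beside 35.7%, and in replicate 3 it was 47, beside 45.8%. In every list, 33 members (66.0%) had one, beside 25.7% of protein-coding genes, and 33 of the 48 members in any list (68.8%) had one, beside 49.8% of protein-coding genes in any list. Another 13 members were in 2 lists. CCNE1 and CCNA2, cyclins of S-phase entry and S phase, were listed in replicate 3 only, and CCNE2 and CDK1, the main mitotic kinase, were in no list. The median fold of member intervals was 2.15, 2.66 and 2.56 in replicates 1, 2 and 3, below that of all intervals in protein-coding genes in each list, which was 2.62, 3.18 and 2.90. The members were thus listed more often than those references, with lower intervals, and neither difference was tested.

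**Figure D1:**
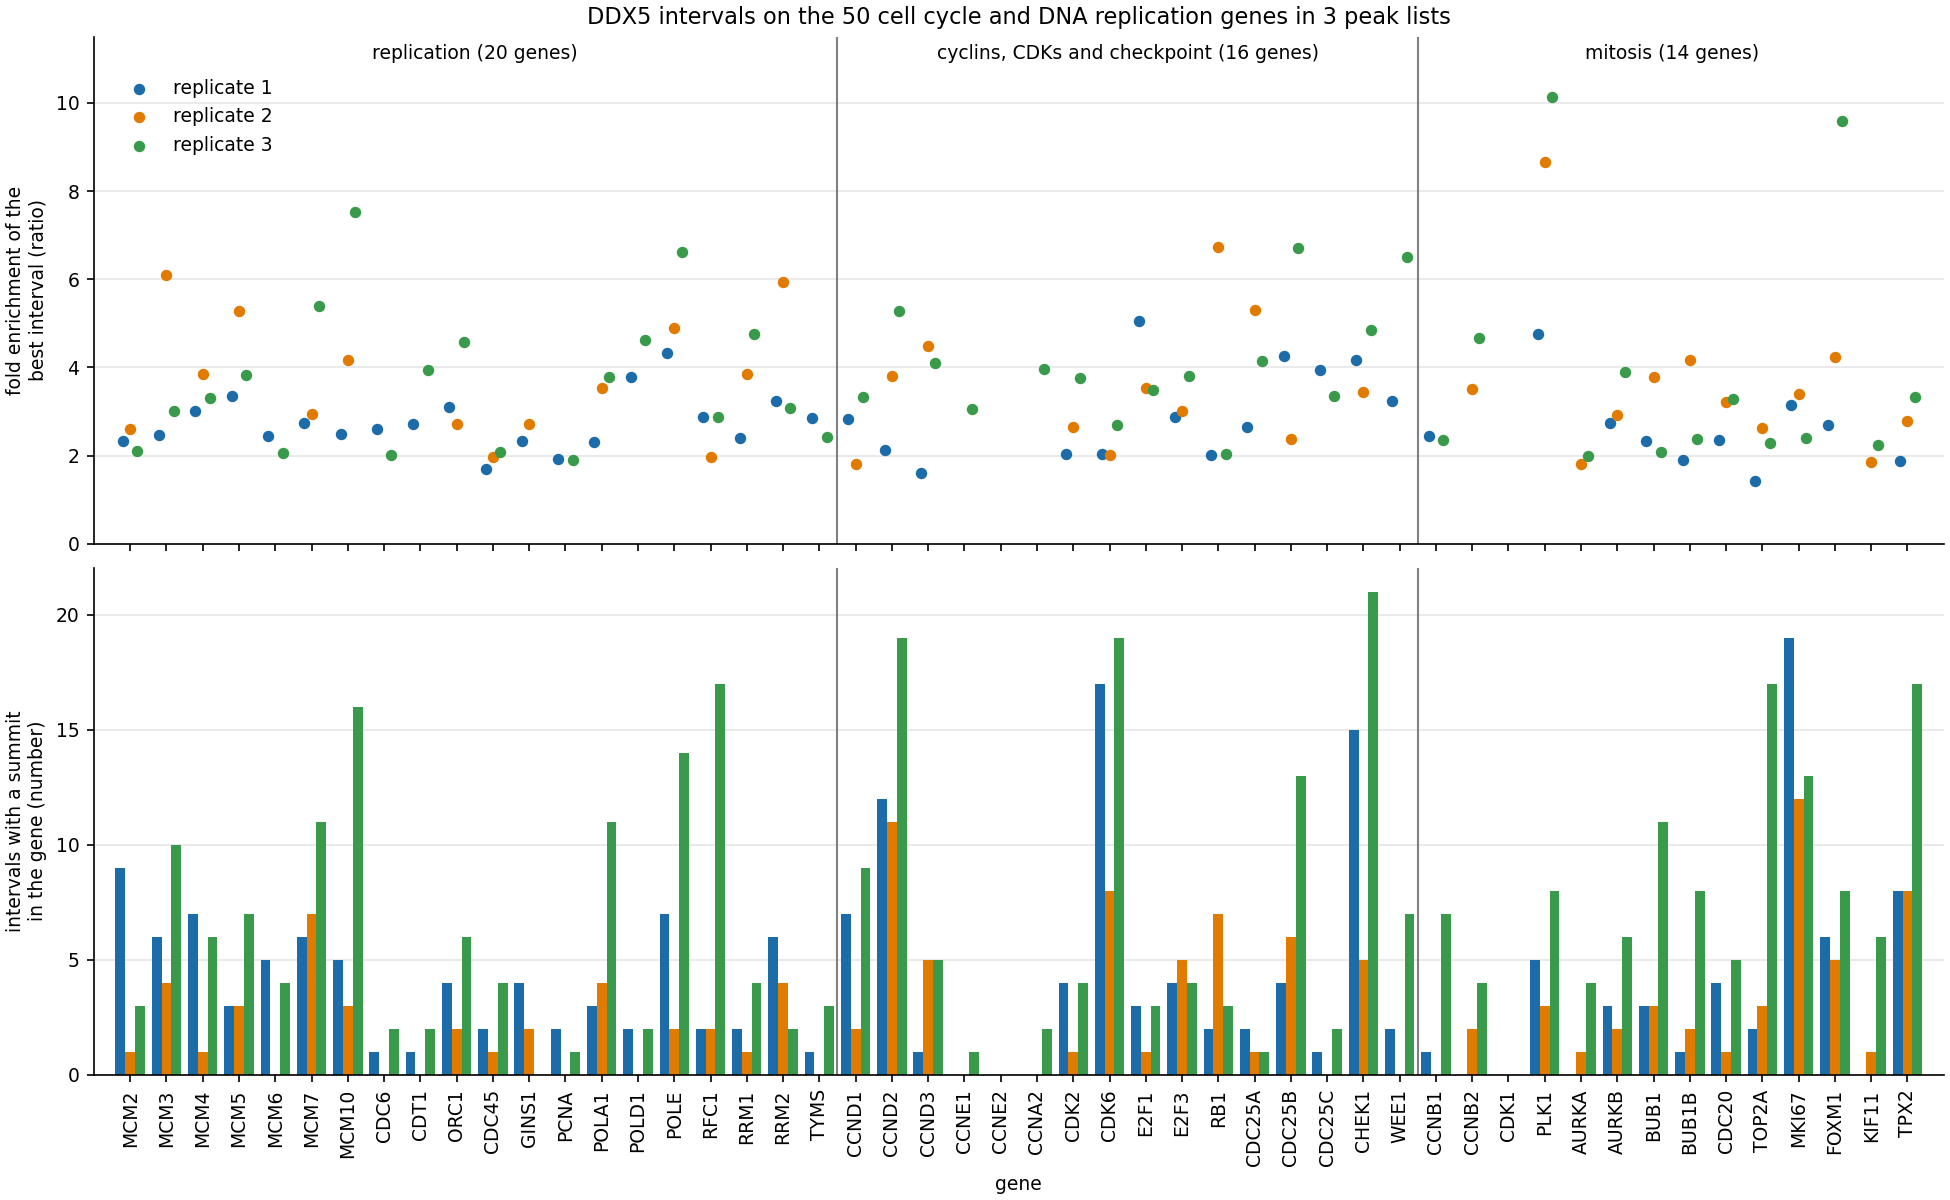
Fold enrichment of the best interval of each gene (upper panel, a ratio) and number of intervals with a summit in the gene (lower panel), by replicate, for 20 replication, 16 checkpoint and 14 mitosis genes. A missing point or bar means no interval in that list. PLK1 reached 4.75, 8.66 and 10.1, and CCNE2 and CDK1 have no point.

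A region found in all lists, that is, a stretch where intervals of the 3 lists overlapped by at least 1 bp and each had its summit in the gene, was present in 25 of the 50 members, beside 18.8% of protein-coding genes. Of the 48 members in any list it was also 25, beside 36.4% of protein-coding genes in any list. These members held 59 such regions. For each gene and list the interval with the lowest q-value is called the best, and its fold is the value given for a gene below. In MCM2, MCM7, CDC45, CDC25A and PLK1 the best intervals of all 3 lists fell in the same region. In the other members with an interval in every list the best intervals fell in more than 1 place.

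Of the replication genes, 13 of 20 had an interval in every list and 8 had a region in all lists, with 15 regions in total. POLE, the catalytic subunit of the leading-strand polymerase, had best folds of 4.33, 4.90 and 6.61 in replicates 1, 2 and 3, the highest of this role in rank within the lists. Its region in all lists lay in the 3′ UTR at chr12:132623813-132624074, with folds of 2.47, 4.90 and 4.32. POLE was thus at or above 4 in each list by its best interval, but in replicates 1 and 3 that interval lay in coding sequence outside the region.

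MCM10, which helps to start the fork, had best folds of 2.48, 4.18 and 7.52, low in replicate 1 and high in replicate 3. All of its 3 regions in all lists lay in coding sequence, in exons 3, 10 and 14 of 20. The exon 14 region at chr10:13195014-13195313, whose window is printed above, had folds of 2.48, 4.18 and 3.72 and summits within 14 bp. In exon 10 the folds were 1.88, 3.85 and 7.52, so the height of that region differed between replicates more than its place, with summits within 56 bp.

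The 6 subunits of the MCM helicase differed in how many regions they held. MCM7 had 5 regions in all lists, more than any other replication gene, and its best folds of 2.73, 2.95 and 5.38 all came from exon 11, at chr7:100095825-100096207. A further MCM7 region lay near the start of its 3′ UTR, where the summits lay within 7 bp and the folds were 1.97, 2.56 and 2.52. MCM3 had 2 regions, and its best folds of 2.46, 6.09 and 3.01 came from other places, that of replicate 2 from an intron. MCM5 had best folds of 3.34, 5.27 and 3.83, all in its 3′ UTR, and 1 region there at chr22:35424089-35424468, with folds of 3.34, 3.19 and 3.83 that differed little between replicates. MCM2 had 1 region, in its 3′ UTR, with folds of 2.33, 2.60 and 2.11. A second gene record, ENSG00000285600, overlaps it, so that region cannot be given to MCM2 alone. MCM4 was in every list with best folds of 3.01, 3.85 and 3.31 but without a region in all lists, and MCM6 had 5, 0 and 4 intervals, none in replicate 2.

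Among the loading and activating factors, ORC1, a subunit of the origin recognition complex, had best folds of 3.11, 2.72 and 4.56 and 1 region in its 3′ UTR with folds of 2.20, 2.19 and 2.86. CDC45, a helicase activator, had a region in exon 4 with folds of 1.69, 1.97 and 2.07. These CDC45 values were the lowest in within-list rank of the members with a region in all lists, although its 3 summits lay within 15 bp. CDC6 had 1, 0 and 2 intervals, CDT1 had 1, 0 and 2, and GINS1 had 4, 2 and 0, so none of these was in every list.

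Of the other polymerase and clamp genes, POLA1 and RFC1, the clamp-loader subunit, were in every list with best folds of 2.32, 3.53 and 3.79 for POLA1 and of 2.88, 1.97 and 2.87 for RFC1. POLD1 and PCNA, the sliding clamp, were absent from replicate 2, and the 4 intervals of POLD1 also lay in ENSG00000142539. RRM1, the large subunit of ribonucleotide reductase, had 2, 1 and 4 intervals, of which 5 of 7 were intronic. RRM2, the small subunit, was in every list with best folds of 3.23, 5.93 and 3.07, all intronic. Of its 12 intervals, 11 lay 37075 to 75661 bases past the end of its canonical transcript, inside a longer gene record, and without them RRM2 was not in every list. TYMS, thymidylate synthase, had 1, 0 and 3 intervals.

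Of the checkpoint genes, 11 of 16 had an interval in every list and 10 had a region in all lists, with 26 regions in total. CHEK1, the kinase that halts the cycle when replication stalls, ranked highest, with best folds of 4.17, 3.44 and 4.86. The interval of 4.86 in replicate 3 lay past the end of its canonical transcript. In its 3′ UTR, at chr11:125656040-125656898, the folds were 4.17, 3.44 and 4.22 with summits within 23 bp. CHEK1 held 41 intervals, and 29 of them, or 14, 4 and 11 by replicate, lay 148 to 14508 bases past the end of its canonical transcript. Of its 4 regions, 3 lay there, annotated as intron of a longer transcript, with folds of 3.09 to 7.04. In both CHEK1 and RRM2 most intervals thus lay beyond the usual 3′ end, and the transcript they come from was not tested.

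The CDC25 phosphatases remove the inhibitory phosphates from cyclin-dependent kinases. CDC25A had best folds of 2.64, 5.29 and 4.15, all in 1 region of the 3′ UTR at chr3:48157228-48157704. CDC25B had best folds of 4.25, 2.38 and 6.71, and its exon 10 region at chr20:3801689-3802125 had folds of 4.25, 2.24 and 6.71 with summits within 18 bp. In both genes the same place was found each time, while the fold differed between replicates. CDC25C had 1, 0 and 2 intervals, and WEE1, the kinase that opposes these phosphatases, had 2, 0 and 7.

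E2F1, an activator of S-phase genes, had best folds of 5.05, 3.53 and 3.49, and its coding region at chr20:33677173-33677570 had folds of 5.05, 3.53 and 5.12. The summits of replicates 1 and 2 lay in exon 6 and that of replicate 3 in exon 5. E2F3 had best folds of 2.87, 3.01 and 3.81 and 1 region in its 3′ UTR with folds of 2.05, 3.01 and 3.81. RB1, which restrains both, had best folds of 2.02, 6.73 and 2.04, with an intronic interval behind the high value of replicate 2. That interval also lay in LPAR6, so it cannot be given to RB1 alone. The RB1 region in the 3′ UTR had folds of 2.02, 2.61 and 1.69, so replicate 2 was highest there too, by less.

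The D-type cyclins start the passage through G1. CCND2 had 12, 11 and 19 intervals and 8 regions in all lists, the most of all members, with best folds of 2.13, 3.80 and 5.27. Its first region spanned the start codon, at chr12:4273798-4274284, with folds of 3.11, 3.80 and 3.80, and the other 7 had mean folds of 1.53 to 2.08. All 42 of its intervals also lay in a second gene record (CCND2-AS1, ENSG00000285901 or ENSG00000290063), so none can be given to CCND2 alone. CCND3 had best folds of 1.61, 4.49 and 4.10 and 1 region in its 3′ UTR with folds of 1.61, 1.99 and 1.74. Of its 11 intervals, 5 lay before the start of its canonical transcript, inside a longer gene record, among them the one of 4.49. CCND1 had 2 regions, both in its 3′ UTR, with mean folds of 1.59 and 1.83, and LTO1 overlaps the second of these. CDK6, the partner of these cyclins, had 17, 8 and 19 intervals and 5 regions, each with a mean fold below 2 and each in its last exon of 10366 bp. CDK2, the partner of cyclins E and A, had 4, 1 and 4 intervals, all shared with the neighbouring records PMEL or ENSG00000258554.

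Of the mitosis genes, 9 of 14 had an interval in every list and 7 had a region in all lists, with 18 regions in total. PLK1, a kinase of mitotic entry and spindle formation, had best folds of 4.75, 8.66 and 10.1, averaging 7.85 ± 2.78 (SD, n = 3). These were the highest of all members in the mean and in replicates 2 and 3, while in replicate 1 E2F1 was higher with 5.05. All 3 came from the region at chr16:23689839-23690325 in the last exon, where coding sequence for the polo-box domain meets the 3′ UTR. The summits of replicates 1 and 3 lay in coding sequence and that of replicate 2 in the 3′ UTR, within 193 bp. The other PLK1 region, in exon 3 and printed above, had folds of 2.00, 3.44 and 4.19 and summits within 5 bp. Both regions were lowest in replicate 1 and highest in replicate 3.

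FOXM1, the transcription factor of the G2 and mitosis genes, had best folds of 2.70, 4.22 and 9.58. Its 1 region at chr12:2857721-2859703 had folds of 2.06, 4.22 and 5.41, and ITFG2 overlaps part of it. The summits there spread over 1152 bp, with that of replicate 1 in the 3′ UTR and those of replicates 2 and 3 in coding sequence. AURKB, the kinase of the chromosomal passenger complex, had best folds of 2.75, 2.91 and 3.90, all coding, and 2 regions. Of the spindle checkpoint kinases, BUB1 had best folds of 2.32, 3.78 and 2.08 and BUB1B had 1.89, 4.16 and 2.38, each highest in replicate 2. The BUB1 region, in the 3′ UTR, had folds of 2.32, 2.24 and 1.93. The BUB1B region had folds of 1.89, 2.56 and 1.83, with the summits of replicates 1 and 3 in exon 15 and that of replicate 2 in the intron beside it. Both regions were the best interval of the gene in replicate 1 and lower than it in the other two.

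MKI67, the proliferation antigen that coats mitotic chromosomes, had 19, 12 and 13 intervals, 6 regions in all lists and best folds of 3.14, 3.40 and 2.41. Its exon 13 of 6845 bp held 12, 6 and 3 intervals that covered 4422, 4365 and 6626 bp, so replicate 3 had fewer but wider intervals there. A count of intervals is therefore not a measure of how much of a transcript was covered. An MKI67 region near the end of the 3′ UTR, at chr10:128096719-128096974, had folds of 3.14, 2.91 and 3.18 and summits within 18 bp. The other 3′ UTR region had 2.24, 3.40 and 3.36, higher in replicates 2 and 3, and these were the highest MKI67 regions by mean fold. TPX2, a spindle assembly factor, had 5 regions, and its best folds were 1.87, 2.79 and 3.32. The TPX2 region in the 5′ UTR, the highest of the 5 in the mean and in replicates 2 and 3, had folds of 2.01, 2.79 and 3.32. CDC20 and TOP2A, the mitotic activator of the anaphase-promoting complex and a DNA topoisomerase, were in every list without a region in all lists. AURKA, CCNB2 and KIF11 were absent from replicate 1, and CCNB1 from replicate 2.

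Per length of exon, with the exons of all annotated transcripts of a gene merged, the mitosis genes carried the most intervals. In POLA1, a replication gene, that length was 15547 bp, beside 5487 bp for its canonical transcript. Exonic intervals per kb of exon numbered 0.725, 0.555 and 1.48 for mitosis in the order of the replicates, and averaged 0.920 ± 0.492 (SD, n = 3). For checkpoint genes they numbered 0.708, 0.354 and 1.05, a mean of 0.704 ± 0.348, and for replication genes 0.504, 0.227 and 0.857, a mean of 0.529 ± 0.316 (SD, n = 3). By this length the order was the same in 3 of 3 lists. By the counts and lengths of canonical transcripts alone, checkpoint genes were above mitosis genes in replicate 1. The mean distance of 0.390 between mitosis and replication was below the SD of the one and above that of the other. Within a list, mitosis exceeded replication by 0.220, 0.328 and 0.623, and checkpoint exceeded replication by 0.203, 0.127 and 0.192. Mitosis exceeded checkpoint by only 0.0169 in replicate 1. The 10352 protein-coding genes with an interval in at least 1 list, members included, had 0.285, 0.206 and 0.525 per kb, below each role in each list although the roles also count their members without an interval. RNA abundance was not analysed here, and its part in these densities was not tested. With intervals shared with a second gene record left out, the checkpoint mean was 0.499 and the replication mean 0.504. The exon lengths were kept whole there, although CCND2 and CDK2 lost all of their intervals. Those means therefore cannot show whether the order of checkpoint and replication genes rested on shared intervals. At a fold of at least 4 the checkpoint mean was 0.0668 and the replication mean 0.0672, while mitosis had 0.0771. TPX2 was the densest member, with 2.22 exonic intervals per kb and list, followed by MCM3 with 1.65 and CCND2 with 1.50.

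The heights did not follow the order of the densities. The median best fold of the mitosis genes was 2.40, 3.31 and 2.41 in replicates 1, 2 and 3, the lowest of the roles in each list, although the role holds PLK1 and FOXM1. It was 2.66, 3.69 and 3.31 for replication genes and 2.83, 3.44 and 3.81 for checkpoint genes. The difference of mitosis minus replication was -0.517 ± 0.342 (SD over 3 lists). Leaving out intervals that shared their pair of fold and p in a group of 10 or more in a list turned this order, with means of 2.64 for mitosis and 2.51 for replication. Taking only intervals with a fold of at least 4 also turned it, with 5.37 for mitosis and 4.81 for replication. So did keeping only exonic summits, with 2.79 and 2.68. All protein-coding genes had a mean of 3.41 ± 0.399 (SD, n = 3), close to replication with 3.22 ± 0.519 and checkpoint with 3.36 ± 0.497.

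**Figure D2:**
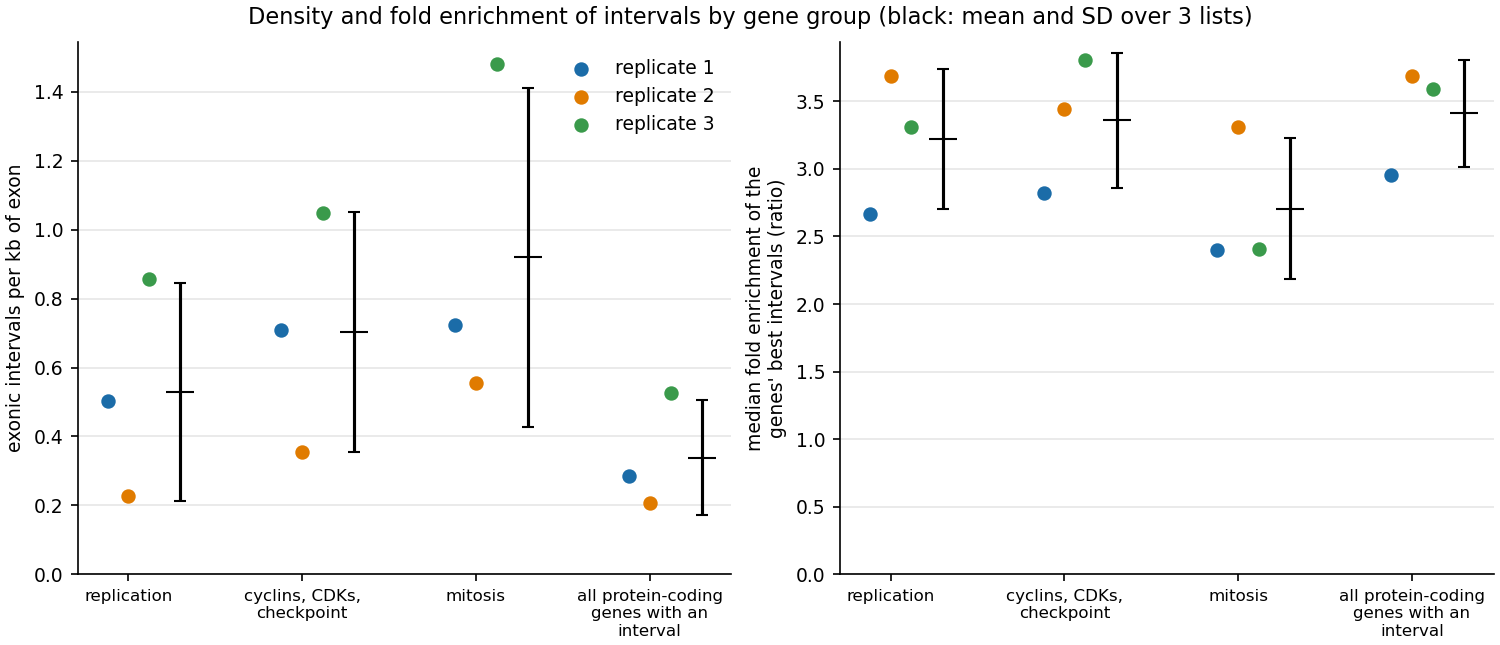
Exonic intervals per kb of exon (left) and median fold enrichment of the best intervals (right, a ratio) for the 3 roles and for all protein-coding genes with an interval. Coloured points are replicates, and black marks are the mean and SD over 3 lists. The mitosis genes have the highest points on the left in each replicate and, with all intervals kept, the lowest on the right.

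The place of the summits differed between the roles. Coding sequence held 67.3%, 55.8% and 70.2% of the intervals of mitosis genes by replicate, or 64.4% ± 7.60 (SD, n = 3) on average. It held 46.2%, 40.5% and 64.8% for replication genes, a mean of 50.5% ± 12.7, and 18.9%, 13.5% and 40.7% for checkpoint genes, a mean of 24.4% ± 14.4. The gap between mitosis and checkpoint genes, 40.1 ± 9.67 percentage points (SD over 3 lists), exceeded the spread in each of the lists, with 48.4, 42.4 and 29.5 points. The 3′ UTR shares ran in the opposite order for checkpoint genes, with 60.8%, 42.3% and 35.4%. They were 29.5%, 24.3% and 12.0% for replication and 21.2%, 25.6% and 9.65% for mitosis. Intervals of all protein-coding genes were in coding sequence for 37.3%, 28.4% and 49.7%, between checkpoint and replication genes in each list. Without CDK6, the gene with the most checkpoint intervals, the 3′ UTR share of checkpoint genes was 39.1% ± 11.6, and without MKI67 the coding share of mitosis genes was 58.4% ± 10.5 (SD, n = 3).

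The transcripts of the roles differ in make-up. In the canonical transcripts 3′ UTRs make up 58.5% of the length for checkpoint genes, 28.8% for replication genes and 21.0% for mitosis genes. Per kb of 3′ UTR, the checkpoint genes had 1.22, 0.595 and 1.08 intervals in replicates 1, 2 and 3, and the mitosis genes 1.04, 0.947 and 1.04. The replication genes had 1.12, 0.389 and 0.730. The means were 0.964 ± 0.327, 1.01 ± 0.0547 and 0.746 ± 0.365 (SD, n = 3), for checkpoint, mitosis and replication genes. Per length of 3′ UTR, checkpoint genes were thus above mitosis genes in replicates 1 and 3 and below them in replicate 2 and in the mean. They were above replication genes in each list, by 0.218 ± 0.128 on average (SD over 3 lists). Per kb of coding sequence, mitosis genes had 0.909, 0.641 and 2.14 intervals in replicates 1, 2 and 3. Replication genes had 0.739, 0.308 and 1.66, and checkpoint genes 0.641, 0.320 and 2.10, with replicate 3 highest in each role. Protein-coding genes with an interval in at least 1 list had 0.440, 0.321 and 1.13 per kb of coding sequence. In replicate 2, replication and checkpoint genes were slightly below that reference. Its values per kb of 3′ UTR were 0.467, 0.322 and 0.529, below each role in each list. Mitosis genes were thus above replication genes in each list, by 0.325 ± 0.153, and above checkpoint genes in each list, by 0.207 ± 0.153 (SD over 3 lists) but by only 0.0331 in replicate 3. Checkpoint minus replication was 0.118 ± 0.285 per kb of coding sequence, within its spread and below 0 in replicate 1.

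**Figure D3:**
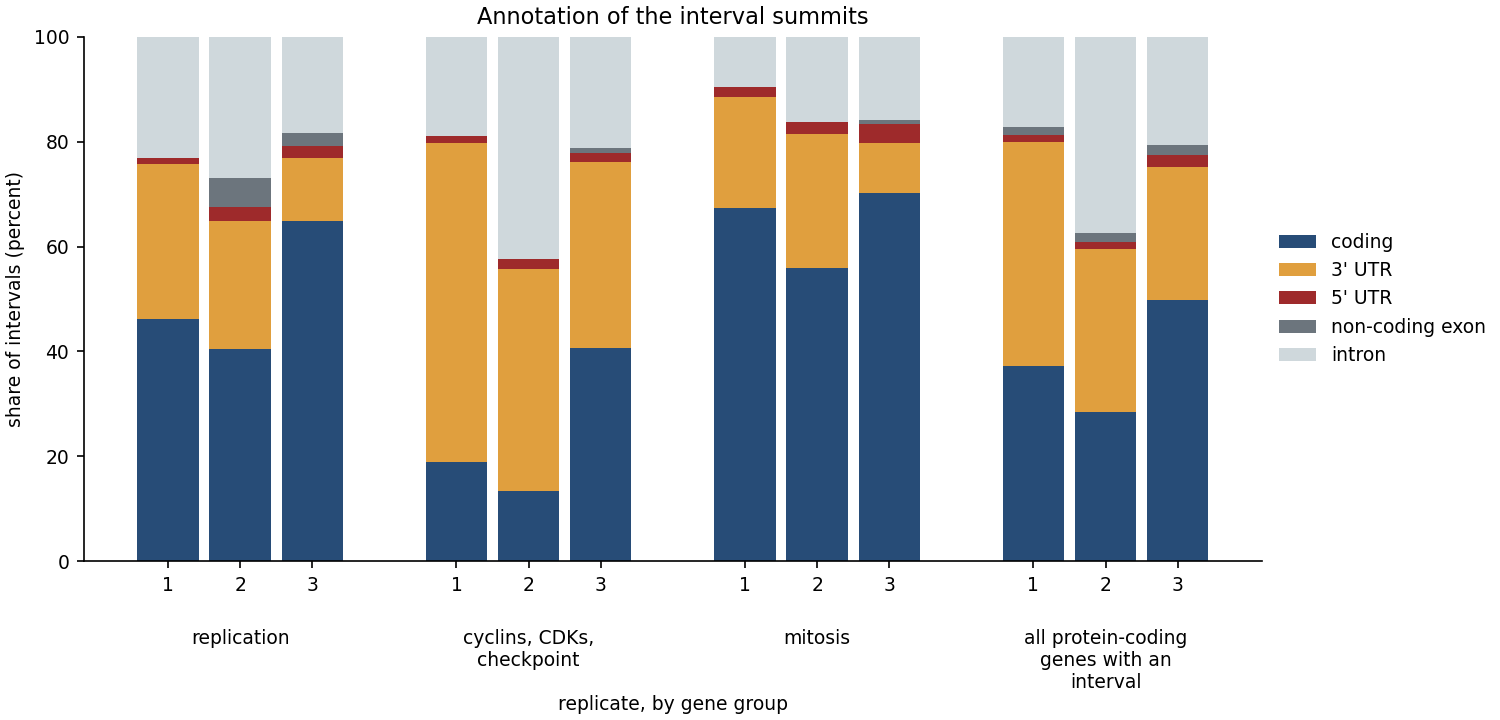
Share of intervals (percent) whose summit lay in coding sequence, 3′ UTR, 5′ UTR, non-coding exon or intron, for each replicate, by role and for all protein-coding genes with an interval. Coding sequence is the largest class in each mitosis bar, and the 3′ UTR exceeds coding sequence in the checkpoint bars of replicates 1 and 2.

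The regions found in all lists followed the same division. By the middle one of the 3 summits, 8 of 15 replication regions lay in coding sequence and 6 in 3′ UTRs. Of the checkpoint regions, 5 of 26 lay in coding sequence and 17 in 3′ UTRs, and of the mitosis regions, 11 of 18 and 5. Over all protein-coding genes, 42.3% of 8602 regions lay in coding sequence and 44.7% in 3′ UTRs. The 3′ UTR regions of checkpoint genes lay a median of 1910 nt past the stop codon, those of replication genes 200.5 nt and those of mitosis genes 232 nt, beside 1028 nt over all genes. Exons of 1000 bp or more held 73.9% of the checkpoint regions placed on a canonical transcript, 14.3% of the replication regions and 35.3% of the mitosis regions. Over all protein-coding genes they held 53.2%. As a share of the length of the 3′ UTR, the median place was 47.5% for replication, 51.4% for checkpoint and 32.2% for mitosis regions, so the gap in nt between replication and checkpoint was small in relative terms. CDK6 and CCND2 held 9 of the 17 checkpoint regions in 3′ UTRs. The last exon held 17 of 23 checkpoint (73.9%), 6 of 14 replication (42.9%) and 7 of 17 mitosis regions (41.2%) placed on a canonical transcript. Over all protein-coding genes it held 56.4%. The 3 summits of a region lay within a median of 46 bp for replication, 82 bp for checkpoint and 116.5 bp for mitosis genes, beside 84 bp for all genes.

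**Figure D4:**
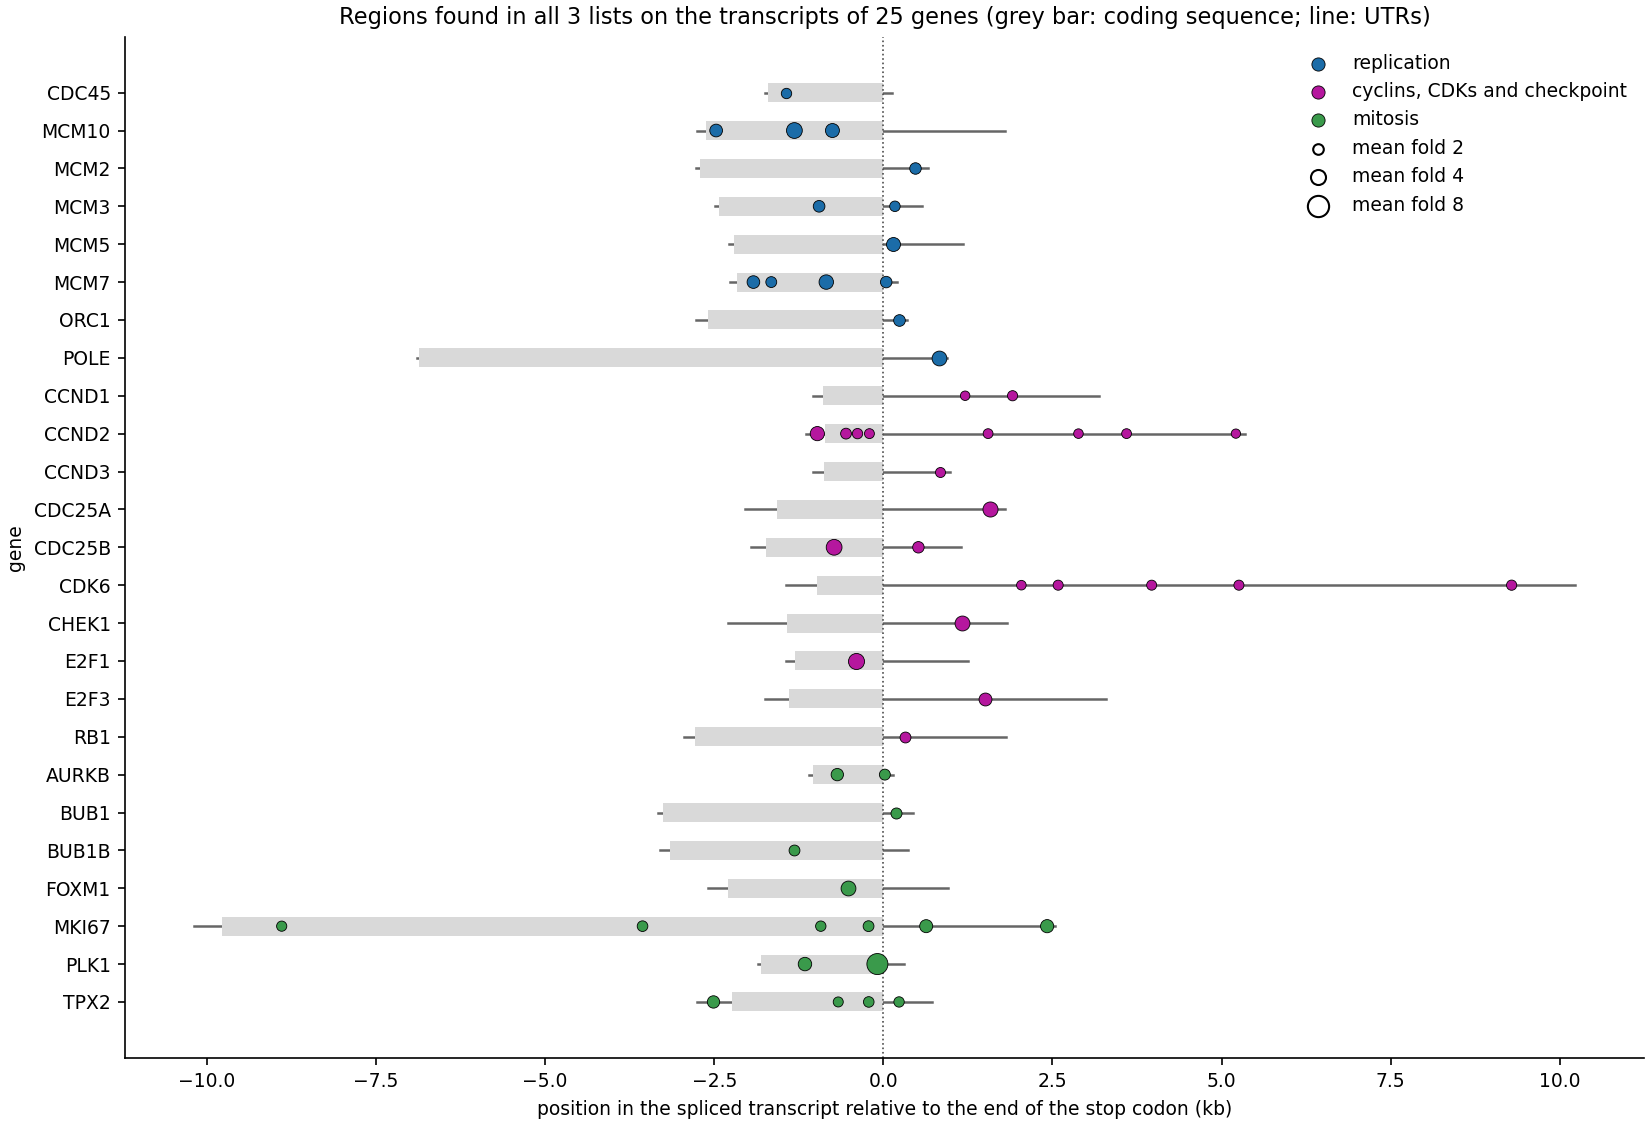
Position of 54 of the 59 regions found in all lists on the canonical transcripts of 25 genes, in kb from the end of the stop codon (negative values lie upstream). Grey bars are coding sequence, lines are UTRs, colours are roles and circle area grows with the mean fold over 3 lists. The other 5 regions lay outside the exons of the canonical transcript, and the largest circle is PLK1, with a mean fold of 7.85.

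Members with 4 or more regions had lower intervals at the median than those with 1 to 3. MCM7, CCND2, CDK6, CHEK1, MKI67 and TPX2 had 4 or more regions each and held 33 of the 59. The intervals of these 6 genes had a median fold of 1.87, 1.94 and 2.12 in replicates 1, 2 and 3, beside 2.54, 3.14 and 3.07 for the 19 members with 1 to 3 regions. The 25 members without a region had 2.34, 2.65 and 2.23, also below those 19 members in each list, so the fold did not fall steadily with the number of regions. Of the 33 regions, 22 had a mean fold below 2.5, beside 13 of the 26 regions of those 19 members. CHEK1 stood apart from the others with a region of 5.16, which lay past the end of its canonical transcript. The 6 genes also had more exonic sequence, a median of 6794 bp beside 4760 bp. With q-values under 1e-05 in every list, 20 members and 22 regions were left, and with folds of at least 4 only POLE, CHEK1 and PLK1 were in every list. In replicate 2 CHEK1 reached 4 only by an interval of 4.01 past the end of its canonical transcript. Summit windows of 101 bases in member genes had a GC content of 48.2% ± 0.784 (SD, n = 3), beside 47.2% ± 0.994 for all intervals in protein-coding genes. A run pattern of 4 stretches of at least 3 G with 1 to 7 bases between them, or the same in C on the other strand, was present in 11 of 688 windows (1.60%), beside 1.44%. None of the 209 mitosis windows held it, 7 of 239 checkpoint windows did, and 4 of 240 replication windows.

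A further 107 genes of the same processes gave a partly different picture. Of these, 48 had an interval in every list, or 44.9%, beside 25.7% of all protein-coding genes. Of the 93 with an interval in at least 1 list it was 51.6%, beside 49.8% of all such genes and 68.8% of such members. By role it was 12 of 34 replication genes, 16 of 32 checkpoint genes and 20 of 41 mitosis genes. Per kb of exon, the mitosis genes of the wider set again had the most intervals in each list, with 0.438, 0.286 and 1.04, and a mean of 0.586 ± 0.396 (SD, n = 3). Replication genes had 0.179, 0.127 and 0.513, and checkpoint genes 0.252, 0.142 and 0.327, so checkpoint genes were above replication genes in 2 of 3 lists only. The coding share was again highest for mitosis, 58.1% ± 8.01, and lowest for checkpoint genes, 31.9% ± 8.98 (SD, n = 3). In height, mitosis and replication genes of the wider set differed by less than the spread between lists. The median best fold of the mitosis genes differed from that of the replication genes by -0.0810, -0.147 and 0.109 in replicates 1, 2 and 3, a mean of -0.0396 ± 0.133 (SD over 3 lists).

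The highest-ranked genes of the wider replication set were POLE3, TIMELESS and CLSPN. POLE3, an accessory subunit of the same polymerase as POLE, had best folds of 3.98, 6.66 and 4.41, and TIMELESS, a fork protection factor, had 4.87, 6.04 and 3.71. CLSPN, the claspin adaptor through which CHEK1 is activated, had 4.48, 4.43 and 4.35, all in the 3′ UTR but without a region in all lists. Among checkpoint genes TFDP2, a partner of the E2F proteins, had 3.97, 4.45 and 5.86, E2F7, an atypical repressor E2F, had 4.58, 3.58 and 4.09, and RAD9A, a part of the checkpoint clamp whose record overlaps other genes, had 2.73, 4.25 and 6.01. Among mitosis genes MYBL2, which acts with FOXM1, had 4.99, 4.65 and 6.14, BIRC5, the survivin partner of AURKB, had 4.55, 5.30 and 3.29, and ESPL1, the separase protease, had 5.68, 5.13 and 3.12. Of these genes, only MYBL2 and CLSPN were at 4 or above in each list by their best interval. MYBL2 was higher than PLK1 in replicate 1 and lower in replicates 2 and 3. PRC1 and NCAPD2, chosen after their values were seen, held 9 and 8 regions in all lists, as many as or more than any of the 50 members. All 39 intervals of PRC1 also lay in a second gene record (ENSG00000284946 or PRC1-AS1), so none can be given to PRC1 alone.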

How the data were processed

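RNA immunoprecipitated with DDX5 from nuclei of RH30 cells was measured in 3 replicates, and 1 peak list of each was analysed. Per the submitters' processing notes, reads were handled with MACS2 2.2.7.1, SAMtools 1.10, STAR 2.6.1d, FastQC 0.11.8, cutadapt 1.11 and bcl2fastq 2.20 on the build GRCh38/hg38. Parameters and the control of the calls are not given in the sources used here. The fold is a linear ratio deposited by the authors. Each interval also has a deposited −log10 p-value and −log10 q-value, and a deposited score that was left unused. The largest q-value of each list was 0.0499.

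Summits (start plus offset) of 1 interval were merged into 1, kept at the highest −log10 q. Genes, exons and canonical transcripts came from GENCODE version 44, and a summit counted for every gene record that held it. Its feature was taken in the order coding, UTR, non-coding exon, intron. Intervals of the 3 lists sharing at least 1 bp formed a region. The members and lists were chosen with earlier results of these data known. Values per list were given for members with a region in all lists, up to 8 per role by mean within-list percentile of the best fold, for members in 1 or no list, for members with intronic intervals only (none was found), and for the top 3 of each role of the wider set. Printed sequences followed the closest summits, with at most 8 coding windows, and 1 further 3′ UTR site is not reported here. No test was run across genes. Python 3.11.15, pandas 2.3.3, numpy 2.4.6 and pysam 0.24.0 were used. The region step was tested on simulated data. Alternatives were equal list lengths, a stricter q, a fold minimum, other overlaps, exon-only and single-gene summits, first listed summits, no shared pairs of fold and p, and each replicate left out. Keeping only summits within the canonical transcript span was added after the data were seen. Replicate spread covers these 3 cultures or preparations, which the labels call biological.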

Additional observations from a re-analysis of the deposited data

How the results depend on the processing

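Of 106 values recomputed under alternatives other than leaving out a replicate, 77 stayed within the spread between lists or within 1.5 times the count, and 29 did not. With a q-value under 1e-05, 20 members were in every list (8 replication, 7 checkpoint, 5 mitosis), with 22 regions and 0.346 checkpoint intervals per exonic kb. With a fold of at least 4, 3 members remained (1, 1 and 1), with 2 regions, a 3′ UTR share of 10.9%, median best folds of 4.81, 4.62 and 5.37 and 0.0672, 0.0668 and 0.0771 intervals per kb for replication, checkpoint and mitosis. Without intervals whose fold and p recurred together at least 10 times in a list, 20 members (6 replication, 7 checkpoint) and 35 regions were left, the 3′ UTR share was 42.8%, and replication had a median best fold of 2.51 and 0.193 intervals per kb. With exonic summits only, the coding share was 57.5% and the replication median best fold 2.68. Regions numbered 24 with a reciprocal overlap of 50% and 34 with summits within 100 bp. Leaving out each replicate in turn gave 71 to 135 regions, with 135 without replicate 2, and 34 to 42 members in both remaining lists. Limiting summits to the span of the canonical transcript (chosen after seeing the data) left 32 members and 56 regions. No paired analysis was possible because the INPUT samples, which share the replicate numbers, were not analysed here and the results come from no test. The depth of the libraries is unknown, the list of replicate 3 was the longest, and the lack of a gene from a list does not show that its RNA was absent.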
